A study of Mus musculus with 7 samples.

Results

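The nuclear receptors are ligand-controlled and orphan transcription factors that share a zinc finger DNA-binding domain, and 44 of their genes were followed among the 27179 genes counted in 7 Eµ-Myc lymphoma lines. The genes were taken by family name, but the family was chosen by the difference of 1 member, Nr2f2, between Smchd1 null and wild-type lines. The null against wild-type values of the members are therefore given as a description, and nothing is read from them. RNA-seq libraries came from 3 wild-type lines (Smchd1+/+) and 4 Smchd1 null lines, which the labels describe as gene trap homozygotes and the study's methods as Smchd1 MD1/MD1. MD1 is known as a point mutation from a chemical mutagenesis screen, so the sources differ on the allele. Smchd1 encodes a chromosomal protein known for its part in X inactivation and in the silencing of some autosomal gene clusters. All 7 lines carried the Eµ-Myc transgene, in which an immunoglobulin enhancer drives Myc in B lineage cells, and all were grown from end-stage lymphomas of C57BL/6 males whose ages the labels do not give. Each library stands for 1 tumour line, so a value can belong to a line rather than to its genotype, and nothing in the labels says whether any 2 lines came from separate animals.

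Nuclear receptors work in a few modes. Steroid hormone receptors bind their ligand while held by HSP90 chaperones and act as homodimers. The thyroid hormone, retinoic acid, vitamin D, peroxisome proliferator-activated (PPAR) and liver X (LXR) receptors pair with a retinoid X receptor (RXR) and exchange corepressors such as NCOR1 for coactivators of the NCOA family when ligand binds. Orphan receptors such as the COUP-TF and NR4A proteins have no settled natural ligand and are governed mainly by how much of them is made. In lymphocytes the family is best known for the glucocorticoid receptor, through which glucocorticoids kill lymphoid cells, and for NR4A1, an early response gene of antigen receptor signalling. NR2F2, also called COUP-TFII, is known for venous and lymphatic endothelial identity and for its expression in mesenchymal cells, not for a role in B cells.

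The libraries held between 3626853 and 7519549 counts, so that 3 counts corresponded to 0.827 CPM in the shallowest, wild-type replicate 1, and to 0.399 CPM in the deepest, null replicate 4. CPM is the count of a gene per 1000000 counts of its library. Wild-type replicate 1 was the only library of batch 1 and the only one with single-end reads, so batch and read layout cannot be told apart from that line. Wild-type replicates 2 and 3 were much more alike than any other pair of a group (chi-square per degree of freedom of 3.79, against 17.2 to 61.2). They differed by more than counting noise, which libraries of 1 line could also do. They were counted as 2 samples because the labels give them as separate, and the calls that rest on this are given with 1 of them left out. Null replicate 4 stood apart in its B cell markers, with 191 counts of Cd22 against 1575 to 2209 in the other null libraries and 125 of Pax5 against 438 to 550, although it had 17805 counts of Ighm and 2278 of Cd79b. Ighm, the heavy chain gene of B cells, was at 2158 to 2465 CPM in wild-type and 1627 to 2471 CPM in null libraries. The fit gave low weights to wild-type replicate 1 (0.2458) and null replicate 4 (0.2492) and high weights to wild-type replicates 2 and 3 (3.785 and 3.059). Smchd1 itself was at 248, 230 and 219 CPM in wild-type replicates 1, 2 and 3 and at 25.9, 22.6, 28.6 and 28.7 CPM in null replicates 1 to 4. The group means differed by -206 CPM (exact two-sided permutation test, p = 0.02857, the smallest that 3 against 4 libraries can give), with all 4 libraries labelled null below all 3 labelled wild-type.

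Nr2f2 lies on chromosome 7 at chr7:70351946-70366746 of GRCm38, on the minus strand. Its closest relatives are Nr2f1 (COUP-TFI, chr13:78188971-78198873) and Nr2f6 (EAR2, chr8:71374118-71381967), both also on the minus strand. The 250 bases upstream of a start of each, from RefSeq on build GRCm38.p6, are printed because these 3 genes of 1 subfamily differed in level. In the wild-type lines only Nr2f6 was above the floor. In the null lines Nr2f2 (15.6 to 44 CPM) and Nr2f6 (22.2 to 38.8 CPM) overlapped, and Nr2f1 was at the floor. They are written 5′ to 3′ in the direction of transcription, with every CG dinucleotide in capitals, and cover chr7:70366747-70366996, chr8:71381953-71382202 and chr13:78198874-78199123.
Nr2f2: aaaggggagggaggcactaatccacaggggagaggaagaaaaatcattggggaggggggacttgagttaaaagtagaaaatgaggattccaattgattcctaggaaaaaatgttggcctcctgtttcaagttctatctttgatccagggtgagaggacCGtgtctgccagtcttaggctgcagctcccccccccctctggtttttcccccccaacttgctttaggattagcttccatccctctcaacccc
Nr2f6: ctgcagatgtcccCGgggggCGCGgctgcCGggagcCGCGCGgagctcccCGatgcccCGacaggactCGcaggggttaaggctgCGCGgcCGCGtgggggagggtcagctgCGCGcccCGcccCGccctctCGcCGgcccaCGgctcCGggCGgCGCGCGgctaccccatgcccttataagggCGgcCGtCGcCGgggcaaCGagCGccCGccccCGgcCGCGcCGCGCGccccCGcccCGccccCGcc
Nr2f1: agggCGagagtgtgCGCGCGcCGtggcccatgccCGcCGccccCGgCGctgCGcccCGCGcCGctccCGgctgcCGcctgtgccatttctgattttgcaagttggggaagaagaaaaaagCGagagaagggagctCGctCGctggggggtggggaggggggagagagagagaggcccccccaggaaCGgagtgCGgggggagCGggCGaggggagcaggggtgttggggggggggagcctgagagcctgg
The Nr2f2 window held 1 CG dinucleotide and was 50% G or C. The Nr2f6 window held 42 and was 82.4% G or C, and the Nr2f1 window held 22 and was 72%. A further RefSeq start of Nr2f1 had 2 CG dinucleotides in its 250 bases. The Nr2f2 window belongs to the most upstream start. The GENCODE annotation of the same genome lists 6 transcript starts for Nr2f2 across 11.5 kb, 3 of them of protein-coding transcripts, and 2 of those (70360593 and 70359921) lie inside the gene. Counts per gene do not tell which start was used, and the sequence at the inner starts was not analysed here.

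Over the 40 members with a RefSeq window, the median was 12.5 CG dinucleotides per 250 bases, against 6 over all 27025 genes with one, and 8.08% of those genes had fewer than Nr2f2. Genes with several starts entered as the mean over their starts. The 13 members with at least 10 counts in every library had a median of 20, the 15 members that never exceeded 3 counts a median of 6.5, and the other 12, Nr2f2 included, a median of 13.5. The range was 5.5 to 44 in the first of these sets and 2 to 18 in the second, so the sets overlapped. The hexamer AGGTCA, which many nuclear receptors bind, was searched on both strands. It stood in a window of 9 of the 40 members (22.5%) and of 15.8% of all genes, and in none of the windows of Nr2f1, Nr2f2 and Nr2f6. A gene with several windows had more chances to hold it, and the shares were not adjusted for this. Of all windows taken singly, 14% held it.

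Nr2f2 had 0 counts in all 3 wild-type libraries and 297, 230, 202 and 117 counts in null replicates 1 to 4. These counts correspond to 44, 36.9, 31.2 and 15.6 CPM, a mean of 31.9 ± 12.1 CPM (SD, n = 4). The groups did not overlap, and the lowest null library was the one that stood apart in its B cell markers. With no wild-type count, only a lower bound can be given. The summed null level of 31.4 CPM was at least 173-fold higher than the 0.181 CPM to which 3 counts summed over the 3 wild-type libraries correspond. The fitted log2 fold change of 8.79 (SE 0.70) depends on the count added before taking logs and is no bound. Among the genes with no count in any wild-type library, which numbered 11840, there were 17 with at least 10 counts in every null library, and 5, Nr2f2 among them, with at least 100. In the other direction, 2 genes had no count in any null library and at least 10 in every wild-type library.

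On the scale of CPM per kilobase of gene length, which allows genes to be compared, Nr2f2 reached 9.03, 7.59, 6.41 and 3.19 in null replicates 1 to 4. It ranked 9th, 13th, 11th and 15th among the 44 receptor genes of those libraries and held 4.22%, 3.25%, 3.22% and 1.56% of their summed level. Nr2f2 was thus a mid-ranking receptor transcript in the null lines. Nr2f1 had 0, 1 and 3 counts in wild-type replicates 1 to 3 and 0, 1, 0 and 0 in null replicates 1 to 4, which is at the floor in both groups. Nr2f6 had 125, 168 and 168 counts in wild-type and 262, 179, 144 and 253 in null libraries. These are 28.9 ± 5.05 CPM (SD, n = 3) and 30.9 ± 7.06 CPM (SD, n = 4), and the groups overlapped.

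**Figure D1:**
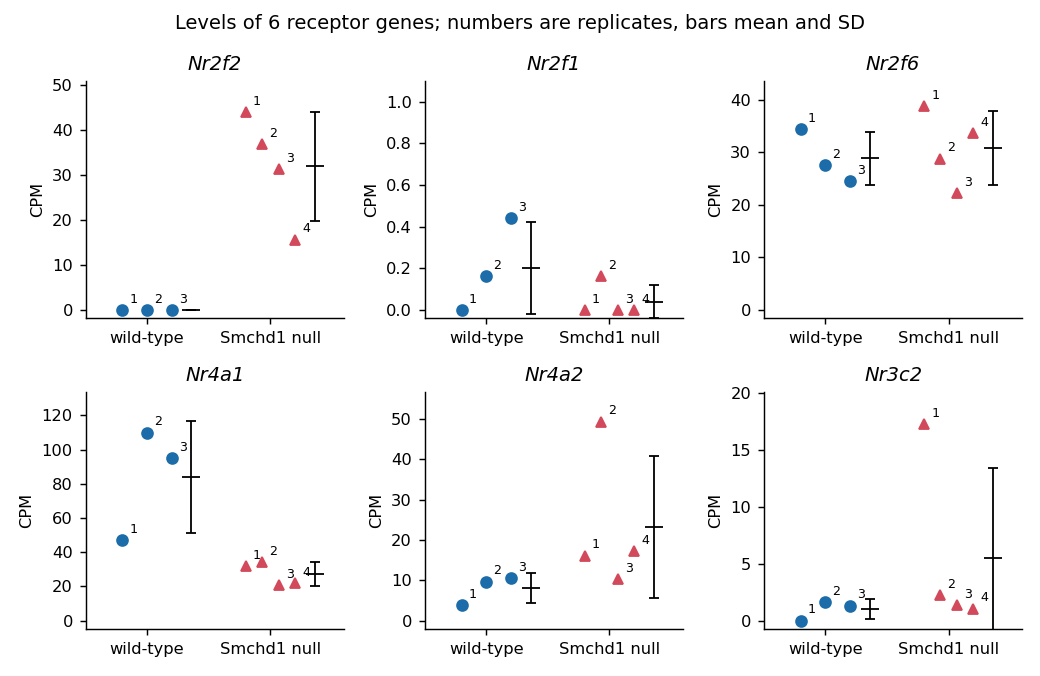
CPM of Nr2f2, Nr2f1, Nr2f6, Nr4a1, Nr4a2 and Nr3c2 in each library, with wild-type libraries as circles (n = 3), Smchd1 null libraries as triangles (n = 4), the replicate number beside each point and a bar for the mean and SD. Nr2f2 is at 0 in the wild-type libraries and between 15.6 and 44 CPM in the null libraries, Nr2f6 overlaps between groups, and the Nr3c2 mean of the null group rests on replicate 1.

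In bulk RNA, a gene made by few cells at a high level and one made by all cells at a low level cannot be told apart. The markers of the cell types known for NR2F2 were therefore read beside it. Of the 6 stromal markers, Col1a2, Col3a1, Pdgfra, Pdgfrb and Dcn had 0 counts in every null library, and Col1a1 had 2 counts in null replicate 4 only. Their summed level was between 0 and 0.266 CPM in null and between 0 and 10.2 CPM in wild-type libraries, with the highest value in wild-type replicate 1. Of the 6 endothelial markers, Kdr, Emcn and Lyve1 had 0 counts in all 7 libraries. The summed endothelial level was between 47.7 and 70.4 CPM in wild-type and between 63.3 and 223 CPM in null libraries, and nearly all of it was Pecam1, which B cells also express. Cdh5 was at 1.97 to 3.58 CPM in wild-type and 1.28 to 2.63 CPM in null libraries. Tek, a further endothelial marker, had 23 counts in null replicate 4 and at most 1 elsewhere. The 4 epithelial markers summed to between 0 and 2.93 CPM in wild-type and between 0.154 and 25.3 CPM in null libraries, and the 6 myeloid markers to between 3.03 and 12.2 and between 0.296 and 27.8 CPM. The 6 T cell markers summed to between 17.6 and 61.2 CPM in wild-type and between 1.12 and 12 CPM in null libraries. Nearly all of that was Lck, which was lower in the null lines with no overlap (log2 fold change -2.69, SE 0.61, limma FDR 0.0312), while Cd3e and Cd8a had 0 counts throughout and Cd3d, Cd3g and Cd4 at most 3.

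Of the 44 members, 11 had 0 counts in every library. These were Pparg, Nr1h4, Nr1i2, Hnf4a, Hnf4g, Nr2e1, Nr2e3, Esr2, Esrrb, Esrrg and Nr5a1, known mainly from fat, liver, gut, retina, brain, gonad and adrenal gland. A total of 17 members never exceeded 3 counts in a library. At these depths the 11 members without counts were not detectable rather than absent, since 3 counts summed over all 7 libraries correspond to 0.0689 CPM. The others of the 17 had a few counts, such as Nr2f1 with up to 3 in a library. In 20 members at least 1 library held 10 counts or more. The filter of the fit, at least 0.5 CPM in 3 or more libraries, was passed by 20 members, and Nr2f2 passed it through the null libraries only.

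Levels per kilobase were led by Rxrb, which encodes RXRβ, the common dimer partner. Its median over the 7 libraries was 45.7 CPM per kilobase, with a range of 42.1 to 57.1. Nr1h2, the broadly expressed LXRβ gene, followed at 35.2 (31.6 to 42.5), and the ranges of these neighbours overlapped at their ends. Esrra, an orphan regulator of mitochondrial genes, followed at 16 (7.99 to 20.7), below the range of Nr1h2. Nr4a1 at 13.8, Nr2f6 at 13, the glucocorticoid receptor gene Nr3c1 at 12.6 and the REV-ERBα gene Nr1d1 at 11.6 came next. The ranges of Esrra and of these genes overlapped, so their order is not settled. Esrra was among the 3 highest members in null replicate 2 only. The place of Nr4a1 differed by group, since its median was 38.3 CPM per kilobase in wild-type lines, where Nr2f6 was at 12.4 and Nr3c1 at 12.3, and 10.9 in null lines, where these were at 14.1 and 16.4. Ppard, Thra, Nr2c2, Nr1d2, Rara and Nr2c1 lay between 8.64 and 5.3 and also overlapped. The 3 highest members of a library held 50.4 to 51.9% of the summed receptor level in wild-type and 43.8 to 56.1% in null lines. Rxrb and Nr1h2 were the highest members in 6 of the 7 libraries, and in wild-type replicate 2 Nr4a1 stood above both.

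**Figure D2:**
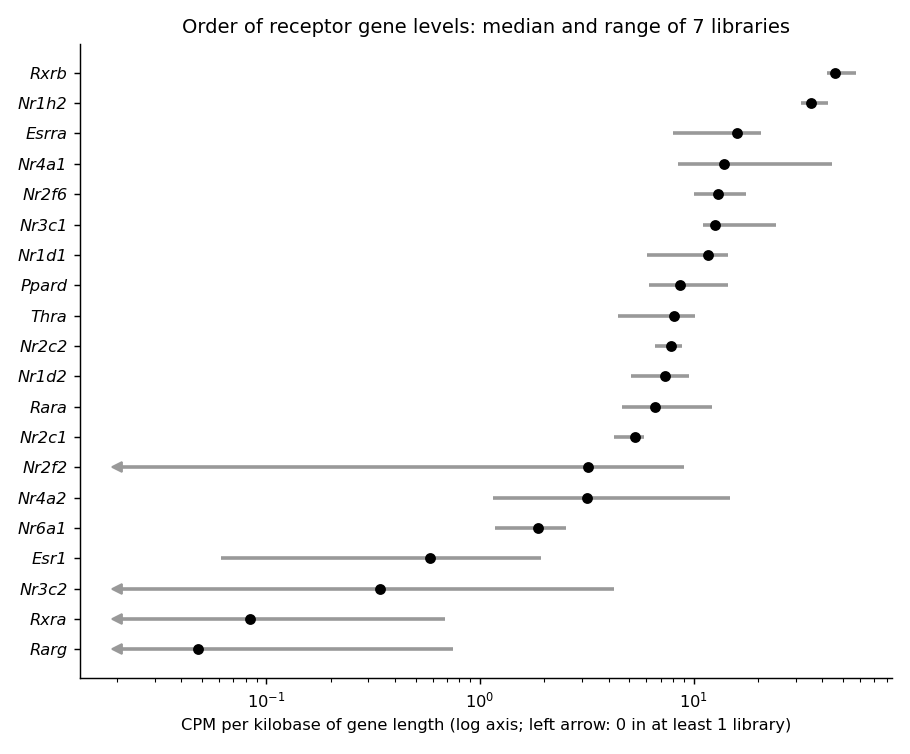
Median (points) and range (lines) over the 7 libraries of the CPM per kilobase of gene length, on a log axis, for the 20 receptor genes with at least 10 counts in some library. Rxrb (45.7) and Nr1h2 (35.2) lead with narrow ranges, while Nr2f2, Nr3c2, Rxra and Rarg run down to 0 in at least 1 library, drawn as a left arrow.

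Across the fit of all 12303 genes tested (limma voom with sample weights, false discovery rate or FDR under 0.05), 5.06% were called higher and 6.85% lower in null lines. Of the 20 members tested, 1 was called higher (Nr2f2), 2 lower (Nr4a1 and Ppard) and 17 were not called. The median log2 fold change, null minus wild-type, was -0.07 over these 20 members and -0.01 over all genes tested, and 7 members had a positive and 13 a negative value. The groups did not overlap, with the null lines higher, for 1 member (Nr2f2) against 6.35% of all genes tested, and with the null lines lower for 3 (Nr4a1, Nr2c1 and Rarb) against 6.85%. Other tools called fewer genes. DESeq2 called 3.12% of genes in either direction, Nr2f2 and Nr4a1 among them. The quasi-likelihood test of edgeR called 0.0975%, Nr2f2 among them, and voom without sample weights called 0.0975% and no member. With wild-type replicate 1 and null replicate 4 removed, the same 3 members were called, among 125 genes higher and 382 lower of 11755 tested. Without wild-type replicate 2, or without wild-type replicate 3, 0 members were called. Each of those fits called 0 genes higher and 1 lower in the whole series, so the loss was not particular to the receptors.

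**Figure D3:**
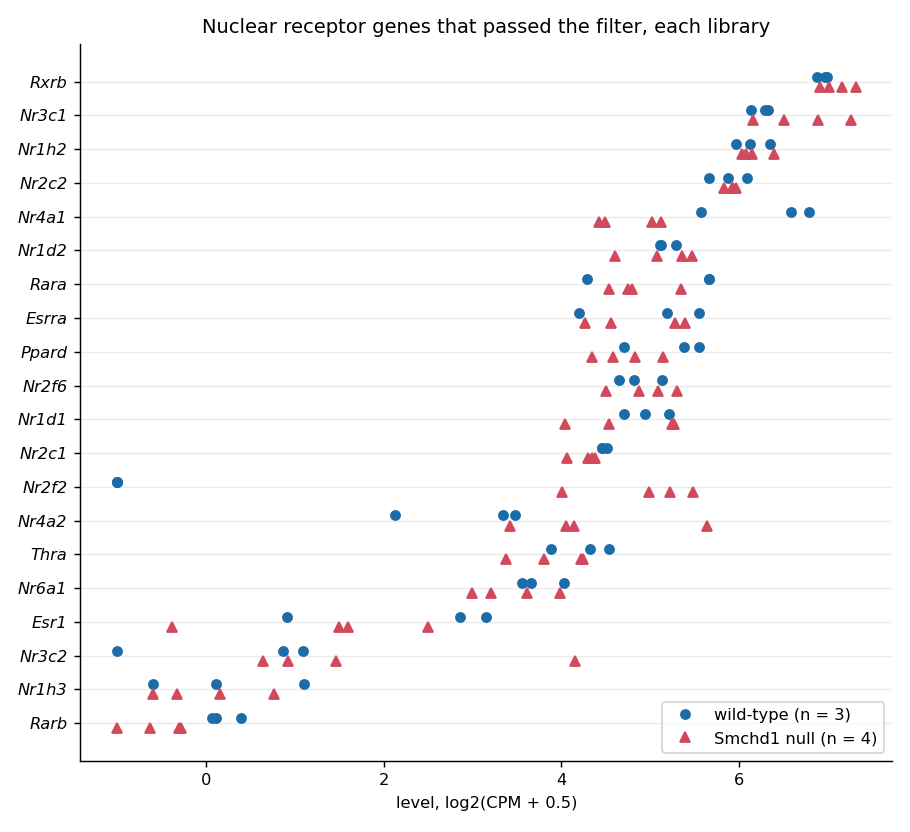
Level of each of the 20 receptor genes that passed the filter, as log2(CPM + 0.5), with wild-type libraries as circles (n = 3) and Smchd1 null libraries as triangles (n = 4). Apart from Nr2f2, groups that do not overlap are seen for Nr4a1, Nr2c1 and Rarb, each lower in the null lines.

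**Figure D4:**
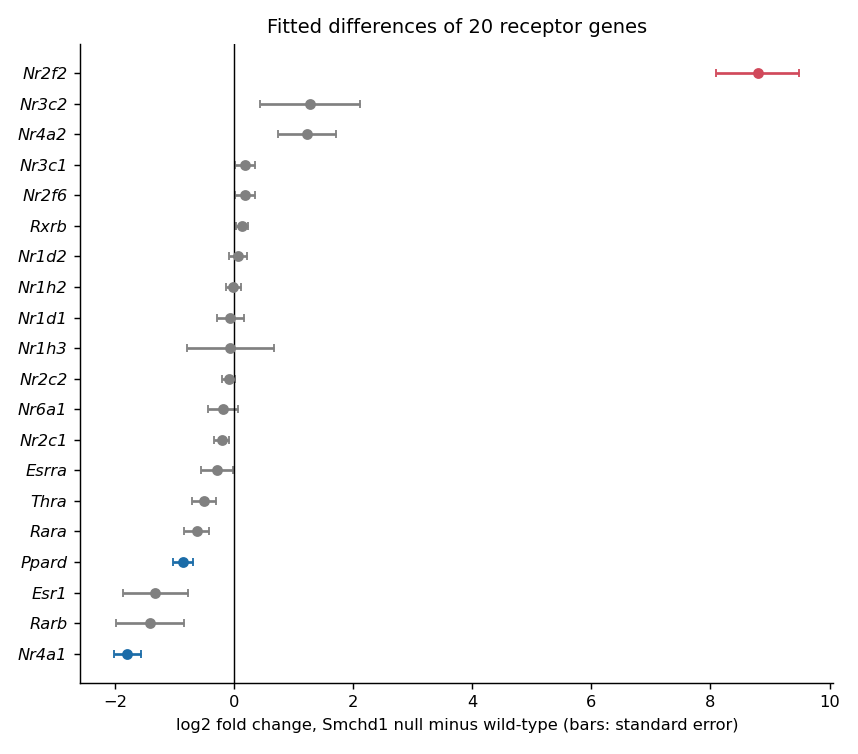
Fitted log2 fold change of the 20 receptor genes tested, Smchd1 null minus wild-type, with bars for the standard error and colour for the 3 genes called. Nr2f2 stands at 8.79 and the other 19 genes lie between -1.79 (Nr4a1) and 1.27 (Nr3c2).

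The NR4A genes, which encode orphan receptors induced within minutes to hours of cell stimulation, differed among themselves. Nr4a1 (Nur77) had 171, 669 and 648 counts in wild-type replicates 1 to 3 and 216, 213, 135 and 165 in null replicates 1 to 4. The levels were 47.1, 110 and 95 CPM against 32, 34.2, 20.9 and 21.9 CPM, means of 84.0 ± 32.7 (SD, n = 3) and 27.2 ± 6.83 (SD, n = 4). All null libraries were below all wild-type libraries, and wild-type replicate 1 lay nearer to the null lines than to the other wild-type lines. The log2 fold change was -1.79 (SE 0.22), and it was -1.81 within batch 2, without wild-type replicate 1. It was -1.20 without wild-type replicate 2 and -1.32 without wild-type replicate 3, and the call was lost in both cases. Nr4a2 (Nurr1) had 14, 59 and 72 counts against 109, 307, 66 and 129, with the highest value in null replicate 2. Its groups overlapped on the CPM scale and its log2 fold change was 1.23 (SE 0.49), which was not called. Nr4a3 had at most 2 counts in any library. The remaining orphans Nr5a2 and Nr6a1, the latter a germ cell factor, were at 1 count or less and at 44 to 108 counts. Nr6a1 had a log2 fold change of -0.19 (SE 0.25).

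Among the lipid and sterol receptors, Ppard, the broadly expressed PPAR gene, had 93, 283 and 281 counts in wild-type and 134, 146, 180 and 261 in null libraries. This is 25.6, 46.4 and 41.2 CPM against 19.8, 23.5, 27.8 and 34.7 CPM. Wild-type replicate 1 lay inside the range of the null lines. The log2 fold change was -0.86 (SE 0.17), and -0.88 within batch 2, while DESeq2, edgeR and voom without sample weights did not call it. Without wild-type replicate 2 it was -0.46 and without wild-type replicate 3 it was -0.57, and it was called in neither case. Nr1h2 was nearly level, with 70.7 ± 9.44 CPM in wild-type (SD, n = 3) and 71.4 ± 8.38 CPM in null lines (SD, n = 4). Nr1h3, the LXRα gene of macrophages and liver, had 9 counts or fewer in each library. Ppara, the fatty acid receptor of liver, had 0, 2 and 0 counts in wild-type and 1, 1, 4 and 9 in null lines, and the xenobiotic receptor gene Nr1i3 had at most 4.

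Of the thyroid hormone and retinoic acid receptor genes, only Thra and Rara were well counted. Thra had 52, 119 and 155 counts in wild-type and 91, 113, 64 and 139 in null lines, a log2 fold change of -0.51 (SE 0.20). Its 3′ end overlaps Nr1d1 on the other strand of chromosome 11, and the strand setting of the counting is not given in the sources used here, so reads of the shared stretch cannot be told apart. Rara had 69, 305 and 341 counts in wild-type and 184, 251, 171 and 170 in null libraries. Wild-type replicates 2 and 3 (50 CPM each) stood above the null range of 22.6 to 40.3 CPM and wild-type replicate 1 (19 CPM) below it. The log2 fold change of Rara was -0.63 (SE 0.21), and it was -0.67 and called within batch 2. It was -0.05 without wild-type replicate 2 and also -0.05 without wild-type replicate 3. Rarb had 2, 5 and 4 counts against 1, 2, 2 and 0, too few to weigh although its groups did not overlap. Vdr, the vitamin D receptor gene, had 4 counts at most.

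Some receptors were highest by far in a single line. Rarg had 18 counts in null replicate 4 and 0 or 1 in the other 6 libraries. Rxra, the RXR gene of liver and skin, had 27 counts there and 0 to 3 elsewhere, and Thrb had 8 counts there and 0 or 1 elsewhere. All 3 were at their highest in the library that stood apart in its B cell markers. Nr3c2, the mineralocorticoid receptor gene, had 117 counts (17.3 CPM) in null replicate 1, 8 to 14 in the other null lines and 0, 10 and 9 in the wild-type lines. Its fitted log2 fold change of 1.27 (SE 0.84) was not called. The other RXR genes differed in another way, since Rxrb was even (117 to 158 CPM in all libraries) and Rxrg had 1 count in wild-type replicate 1 only.

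The glucocorticoid receptor gene Nr3c1 had 253, 474 and 544 counts in wild-type and 608, 439, 764 and 1150 in null libraries. The levels were 69.8, 77.7 and 79.7 CPM against 90, 70.5, 118 and 153 CPM. Null replicate 2 lay inside the wild-type range and null replicate 4 was the highest. The log2 fold change was 0.19 (SE 0.17), below the log2 ratio of the unweighted means of 75.7 and 108 CPM, and was not called. The estrogen receptor gene Esr1 was low and uneven, with 5, 41 and 57 counts in wild-type and 17, 32, 15 and 2 in null lines and a log2 fold change of -1.32 (SE 0.54) that was not called. Esrra ranged from 17.9 to 46.3 CPM in wild-type and from 18.7 to 41.3 CPM in null lines. The progesterone receptor gene Pgr had 2 counts in wild-type replicate 1 only.

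The clock receptors NR1D1 and NR1D2, also called REV-ERBα and REV-ERBβ, repress the clock gene Arntl. Nr1d1 was at 25.6, 30.3 and 36.5 CPM in wild-type and 38.1, 37.4, 22.7 and 16 CPM in null lines, and Nr1d2 at 34.2, 38.7 and 33.9 against 43.8, 40.5, 33.2 and 23.7 CPM. Both overlapped between groups, with log2 fold changes of -0.06 (SE 0.22) and 0.07 (SE 0.15). In both genes null replicate 4 was the lowest of the 7 libraries. Their activating counterparts Rora and Rorb had at most 5 counts in any library. The testicular receptor genes Nr2c1 and Nr2c2 were among the most even members. Nr2c1 was at 21.5, 21.5 and 22.4 CPM in wild-type and 20.3, 19.8, 16.2 and 19.2 CPM in null lines. The groups of Nr2c1 did not overlap, yet the log2 fold change was only -0.21 (SE 0.12) and was not called. Nr2c2 lay between 50.2 and 67.4 CPM throughout.

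Genes around the receptors were tested in the same fit. The choice of members did not use them, but their lists were drawn up with earlier results of these data known. Of 121 such genes in lists drawn up by role, 79 were tested, 1 was called higher and 12 lower, against 5.06% and 6.85% of all genes tested, and 17 had 0 counts in every library. The calls were lost when wild-type replicate 2 or 3 was left out, as were nearly all calls of the series, and the reason was not tested. Without wild-type replicate 2, or without wild-type replicate 3, 0 of them were called by limma, with 4 and 5 at an unadjusted p under 0.05. Over all genes, these fits called 0 higher and 1 lower of 12125 tested, and 0 higher and 1 lower of 12079. The loss of calls was thus not particular to the genes around the receptors. The quasi-likelihood test of edgeR and voom without sample weights called 0, with 12 and 11 genes at an unadjusted p under 0.05. Each of these called 0.0975% of all genes tested. DESeq2 called 4 (Angptl4, Cry1, Klf9 and Nrp2), against 3.12% of all genes tested.

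The machinery shared by all receptors was well expressed. For the counts of calls that follow, 6.85% of all genes tested fell. Of 27 coregulator genes, 26 were tested and 1 fell, Pprc1, a coactivator of the PGC-1 family (264, 268 and 243 CPM in wild-type, 210, 196, 206 and 167 CPM in null lines, log2 fold change -0.36, SE 0.09, limma FDR 0.0438). Pprc1 was called in 2 of 18 alternatives, and not when any of the 7 libraries was left out. The median log2 fold change of the coregulators was -0.01. All 7 chaperone genes were tested and 1 fell, Stip1, the adaptor between HSP70 and HSP90, with 602, 622 and 670 CPM in wild-type and 544, 504, 484 and 526 CPM in null lines (log2 fold change -0.33, SE 0.08, limma FDR 0.0423). Stip1 was called in 4 of 18 alternatives. Enzymes and carriers of receptor ligands were mostly silent. Of 23 genes, 15 never exceeded 3 counts in any library, 6 were tested and none was called by limma (1 at an unadjusted p under 0.05), edgeR or DESeq2 (0 in both at that p). No retinoic acid target of 6 was expressed enough to be tested.

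Of 7 glucocorticoid targets, 6 were tested, 4 fell and 2 were not called, where 6.85% of all genes tested fell, and no test of the difference between lists was made. The median log2 fold change was -0.97, against -0.01 over all genes tested. Of the 4, edgeR and voom without sample weights called 0 and DESeq2 called Klf9. Klf9, a Krüppel-like repressor, was at 25.9, 34.4 and 40.5 CPM in wild-type and 19.7, 14.3, 14.2 and 12.5 CPM in null lines, with no overlap (log2 fold change -1.24, SE 0.18, limma FDR 0.0109). Per1, a clock repressor, was at 58.2, 78.7 and 75.5 CPM against 51.7, 41.6, 49.3 and 55.1 CPM, again with no overlap (log2 fold change -0.71, SE 0.12, limma FDR 0.0137). Tsc22d3, which encodes the glucocorticoid-induced leucine zipper, had a log2 fold change of -1.39 (SE 0.28, limma FDR 0.0226). Its wild-type replicate 1 (15.4 CPM) was inside the null range of 8.65 to 30.3 CPM. Sgk1, a kinase of ion transport and survival, fell with a log2 fold change of -2.58 (SE 0.70, limma FDR 0.0484). It had 34, 382 and 531 counts in wild-type and 197, 78, 36 and 6 in null lines, and wild-type replicate 1 (9.37 CPM) was inside the null range. Within batch 2 all 4 kept a negative log2 fold change and were called, at -1.27, -0.72, -1.41 and -2.66. Without wild-type replicate 2 they were at -1.08, -0.48, -0.92 and -1.55, without wild-type replicate 3 at -0.95, -0.52, -0.93 and -1.34, and none was called in either case. Fkbp5 (log2 fold change 0.06, SE 0.16) and Dusp1 (-0.32, SE 0.38) were not called.

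Of 9 REV-ERB and ROR targets and clock genes, 8 were tested and 2 fell, against 6.85% of all genes tested. Cry1, a core clock repressor, was at 75.3, 59.4 and 63.5 CPM in wild-type and 39.2, 39.7, 51 and 33.4 CPM in null lines (log2 fold change -0.58, SE 0.12, limma FDR 0.0245). Per3 was at 11, 11.2 and 11.3 CPM against 5.18, 6.59, 5.71 and 14.8 CPM (log2 fold change -0.82, SE 0.22, limma FDR 0.0471), with null replicate 4 above the wild-type lines. In edgeR and DESeq2 Per3 was at -0.47 and not called. Arntl, the REV-ERB target itself, had a log2 fold change of -0.70 (SE 0.37) and was not called.

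Of 6 LXR targets, 5 were tested and 2 were called lower, the cholesterol exporter genes Abcg1 and Abca1. Of all genes tested, 6.85% were called lower and 5.06% higher. Abcg1 was at 17.1, 21.5 and 23.2 CPM in wild-type, at 9.48, 10.9 and 7.26 CPM in null replicates 1 to 3 and at 29 CPM in null replicate 4 (log2 fold change -1.10, SE 0.23, limma FDR 0.0267), and the value was -0.55 in edgeR and -0.54 in DESeq2, where it was not called. Abca1 had 1, 36 and 22 counts in wild-type and 0, 1, 0 and 148 in null lines. Its log2 fold change was -4.58 (SE 1.24, limma FDR 0.0487) where null replicate 4 had a low weight, and 0.60 in edgeR and 0.62 in DESeq2, so its direction is not settled. Of 10 PPAR targets, 8 were tested and 1 rose. Angptl4, a secreted inhibitor of lipoprotein lipase, went from 20.7, 15.4 and 17.9 CPM to 45.5, 26.3, 38 and 27.7 CPM with no overlap (log2 fold change 1.01, SE 0.21, limma FDR 0.0241), and it was also called within batch 2 (1.00). Cpt1a, of fatty acid oxidation, and Plin2, of lipid droplets, were not called. The vitamin D, thyroid hormone and xenobiotic targets had 1 gene tested of 6, Abcb1a, which was not called.

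Of 8 immediate early genes, which like Nr4a1 respond quickly to stimulation, 6 were tested. Against 6.85% of all genes tested, 1 of them fell, Ier2. It was at 24.3, 37.2 and 34 CPM in wild-type and 9.33, 11.1, 18.4 and 52.9 CPM in null lines (log2 fold change -1.41, SE 0.30, limma FDR 0.0255), with null replicate 4 the highest of all, and the value was -0.48 in edgeR and in DESeq2, where it was not called. Fos, Fosb, Jun, Junb and Egr1 were not called, and the median log2 fold change of the list was 0.24. Of 12 COUP-TF partners and targets, 6 were tested and 1 fell, Notch1, with 18.2, 47.9 and 41.2 CPM against 17.3, 24.4, 19.6 and 49.2 CPM (log2 fold change -0.98, SE 0.24, limma FDR 0.0385). Its groups overlapped at both ends. The value was -0.37 without wild-type replicate 2, -0.49 without wild-type replicate 3, -0.39 in edgeR and -0.38 in DESeq2, none of which was called. Nrp2, the neuropilin gene of veins and lymphatics and a COUP-TFII target, had 14, 1 and 0 counts in wild-type and 878, 20, 59 and 1895 in null lines. It was not called in the weighted fit (log2 fold change 6.69, SE 3.08) but was called by DESeq2.

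The genes around Nr2f2 on chromosome 7 were read by the distance of their transcription starts from that of Nr2f2. Within 5 Mb lay 46 genes, of which 15 had 0 counts in every library and 19 were tested, against 10297 and 12303 of all 27179 genes. Within 2 Mb there were 6 genes, and 4 had no count at all. The nearest, B130024G19Rik, lies on the other strand, starts 1.36 kb inside Nr2f2 and runs away from it. It had 2 counts in null replicate 3 and 0 in the other 6 libraries, and without a known strand setting reads of the shared stretch cannot be told apart. The only gene tested within 2 Mb was Mctp2, with 15, 64 and 76 counts in wild-type and 149, 109, 122 and 37 in null lines (log2 fold change 0.70, SE 0.31, not called).

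Of the 19 genes tested, 1 was called higher and 1 lower in null lines, against 5.06% and 6.85% of all genes tested. The higher one was Tjp1, which encodes the tight junction protein ZO-1 and starts 4.84 Mb away, near the edge of the window. It had 1, 0 and 0 counts in wild-type and 204, 149, 77 and 12 in null lines, with no overlap, and null replicate 4 was the lowest of the null lines as it was for Nr2f2. The ratio of the summed levels was 271 (95% exact interval 48.4 to 10730, counting error only), and the fitted log2 fold change of 7.76 (SE 1.48, limma FDR 0.0195) depends on the count added before taking logs. DESeq2 called it and edgeR did not (FDR 0.156). Its call was lost without wild-type replicate 2 or without wild-type replicate 3, where almost no gene of the series was called. Tjp1 drops out of the window if distances are taken between low coordinates instead of starts. The lower one was Asb7, 3.68 Mb away (log2 fold change -0.52, SE 0.14, limma FDR 0.0495), which was not called when any of the 7 libraries was left out. Without null replicate 4 the called neighbours were Tjp1, Mctp2, Igf1r and Fam169b. Igf1r, the insulin-like growth factor receptor gene, starts 2.41 Mb away and had 12 counts in that library, 207 to 219 in the other null lines and at most 355 in wild-type lines. Fam169b, 2.09 Mb away, had 0 counts in that library, 34 to 40 in the other null lines and 61 to 91 in wild-type lines. For both genes all null lines were below all wild-type lines in CPM, as for 6.85% of all genes tested. Neither was called in the main fit.

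**Figure D5:**
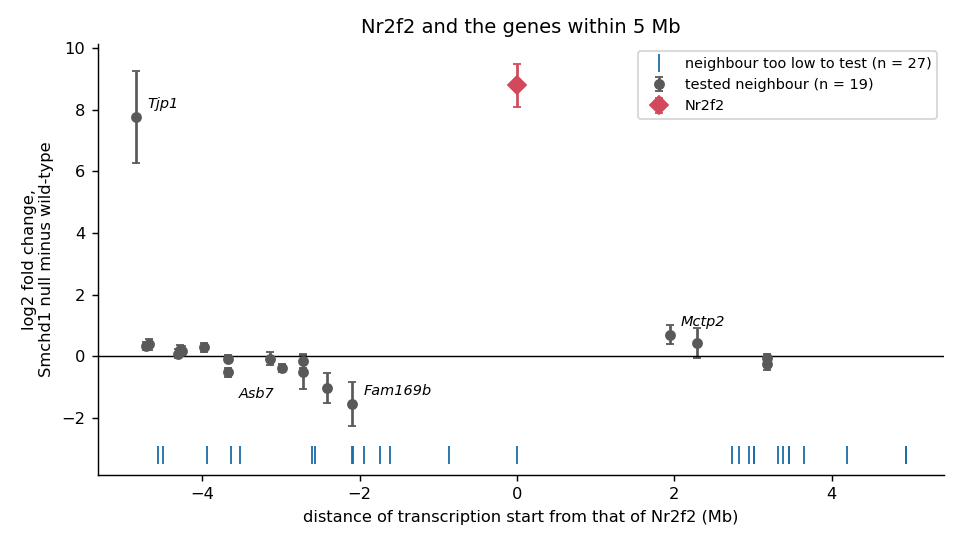
Fitted log2 fold change, Smchd1 null minus wild-type, with its standard error, for Nr2f2 and the 19 genes tested within 5 Mb, against the distance of each transcription start from that of Nr2f2 (negative towards lower coordinates, with the low coordinate used for Chaserr, whose strand was not found). Ticks at the bottom mark the 27 genes too low to test. Nr2f2 (8.79) and Tjp1 (7.76) stand far above the other 18 genes, which lie between -1.54 (Fam169b) and 0.70 (Mctp2).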

How the data were processed

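Counts per gene were deposited as 1 table for each of 7 libraries, raw and not pooled, with the gene length in bases beside each count. Per the labels and the study's methods, the authors made TruSeq libraries from total RNA, called bases with CASAVA (version 1.8.2), aligned reads to mm10 with Subread and counted them per Entrez gene with featureCounts. The strand setting and the handling of multi-mapping reads are not given in the sources used here. Symbols came from RefSeq (GRCm38.p6) for 25275 of 27179 genes, which held 98.24% of counts. Genes with at least 0.5 CPM in 3 samples were kept (12303), scaled by TMM and fitted in R 4.3.3 with limma 3.58.1 (voomWithQualityWeights, lmFit, eBayes), as in the study's methods, with no covariate and Benjamini-Hochberg adjustment over all genes tested. Counts were also fitted with edgeR 4.0.16 (quasi-likelihood) and DESeq2 1.42.0. The scripts were tested on simulated counts with 200 changed genes. Exact permutation tests used scipy 1.17.1.

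Total counts ran from 3626853 to 7519549, and the floor of 3 counts covers counting error only. Members and lists were chosen with earlier results of these data known. Genes named were all 44 members, Smchd1, and the called genes of each list, with up to 5 rises and 5 falls. A few genes of the lists are not reported here by name. Other genes and the markers were named after their values were seen. p-values measure the spread between these lines only. Alternatives were voom alone, voom with block weights (a variance factor of its own for wild-type replicate 1 and for null replicate 4), sample removal (voom without those 2 libraries), other normalization, filters, tools, a replicate block, batch as a covariate, wild-type replicates 2 and 3 summed, and each library left out.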

Additional observations from a re-analysis of the deposited data

Results flagged for a closer look

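In the 4 null lines, 35 genes named above were screened for a value far from the other 3. Dixon's criterion at the 95% level marked 6 of them. It would mark about 1 in 20 genes taken without regard to their values, which does not hold for this set. Abca1, Abcg1 and Per3 entered it because they were called in the fit that gave null replicate 4 a low weight (0.2492). Only genes with at least 10 counts in some null library were screened, which Rarg and Rxra met through null replicate 4 alone. Of the 6 marked genes, 5 were marked for null replicate 4, the line with the fewest counts of Cd22 and Pax5. All 5 thus entered the set through the value or weight of that library, so their number is no result about the line. Rarg was at 2.39 CPM there against at most 0.154 CPM in the other null lines. Rxra was at 3.59 CPM there against at most 0.444 CPM. Abca1 was at 19.7 CPM there against at most 0.161 CPM. Abcg1 was at 29 CPM there against at most 10.9 CPM, and Per3 at 14.8 CPM against at most 6.59 CPM. The sixth was Nr3c2 in null replicate 1, at 17.3 CPM against at most 2.25 CPM in the other null lines.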

How the results depend on the processing

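The number of members called, 3 in the main analysis, was 0 with voom alone, 1 with edgeR, 6 with no filter on low counts and 0 with wild-type replicates 2 and 3 summed, and between 0 and 4 when 1 library was left out. Over all genes tested, the main fit called 623 higher and 843 lower of 12303. Voom alone called 5 and 7 of 12303, edgeR 7 and 5 of 12303, and the summed replicates 0 and 1 of 12118. The fit with no filter called 570 and 890 of 16882. A count of 0 in a fit that called almost no gene is no result about the receptors. The number of genes around the receptors called, 13 in the main analysis, was 0 with voom alone, 2 with block weights, 5 with sample removal, 0 with edgeR, 4 with DESeq2 and 0 with wild-type replicates 2 and 3 summed, and between 0 and 12 when 1 library was left out. Block weights called 156 genes higher and 337 lower of 12303 tested, and sample removal 125 and 382 of 11755. DESeq2 called 193 and 191 of 12303. With 1 library left out, calls ran from 0 and 1 of 12125 (wild-type replicate 2) to 672 and 969 of 12058 (wild-type replicate 1). The 2 called neighbours of Nr2f2 (Tjp1 and Asb7) became 0 with voom alone, block weights, edgeR, the summed replicates and the window of 2 Mb. They became 1 (Tjp1) with sample removal, DESeq2, RLE normalization, the replicate block and batch as a covariate, 1 (Asb7) with at least 10 counts in every sample and 1 (Asb7) with distances between low coordinates, an alternative chosen after seeing the data, and between 0 and 4 when 1 library was left out. With the replicate block, 2 members (Nr2f2 and Nr4a1), 3 genes around the receptors (Abca1, Ier2 and Nrp2) and 1 neighbour (Tjp1) were called. That fit called 87 genes higher and 135 lower of 12303 tested. Deviations from the group means correlated at -0.145, 0.228 and -0.185 across the same-numbered samples. Wild-type replicates 1 and 3 correlated better with another number than with their own. Wild-type replicates 2 and 3 deviated together, opposite to wild-type replicate 1. These values therefore cannot decide whether the numbers pair the samples. The Smchd1 difference stayed between -213 and -198 CPM with 1 library left out, where p cannot fall below 0.06667. Abca1 turned from -4.58 to 0.60 in edgeR and 0.62 in DESeq2. The log2 fold change of Nr2f2 lay between 8.30 and 10.64 and was called in 13 of 17 alternatives, and that of Nr4a1 lay between -2.06 and -1.20 and was called in 13 of 18. Ppard was called in 8 of 18 and Klf9 in 12 of 18. The limma fits that called 0 members had 2 or 3 members at an unadjusted p under 0.05, and the fits that called 0 neighbours had between 0 and 3. Depth limits every statement on genes under about 10 counts, and the causes of the changes in calls were not tested.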

Other observations

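Several genes on the receptor lists that were too low to test, or uneven, were counted mainly in null replicate 4, and they were picked out after their values were seen. Ephb4, a venous ephrin receptor gene, had 545 counts there and 0 to 3 in the other 6 libraries. Dhrs3, a retinaldehyde reductase gene induced by retinoic acid, had 99 counts there and 0 to 3 elsewhere, and Nrp1 had 23 counts there and 0 elsewhere. Nfil3, a clock output repressor, was at 50.3 CPM there and at 2.96, 4.34 and 2.01 CPM in null replicates 1 to 3. Fabp4, a fatty acid carrier, was at 151 CPM there, at 12.7, 35 and 0.309 CPM in null replicates 1 to 3 and at 0, 9.35 and 10.6 CPM in wild-type replicates 1 to 3. Bcl11a, a B cell factor that also binds COUP-TF proteins, was at 89.4 CPM there, at 0 to 18.7 CPM in the other null lines and at 3.12 to 38.3 CPM in the wild-type lines. Pecam1 was at 219 CPM there and at 44.1 to 94.2 CPM elsewhere, and Krt18, an epithelial keratin gene, had 188 counts there and 0 to 3 elsewhere. These are values of 1 line, with no replicate of their own.

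Rpl17-ps10, a ribosomal protein pseudogene 2.28 Mb from Nr2f2, had 76 counts in wild-type replicate 1, the single-end library, and 2308 to 4808 in the paired-end libraries. Reads of such a gene can be shared with near-identical copies, so its counts are uncertain.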
